A study of Mus musculus with 30 samples.

Results

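The 10 genes described here belong to the glucocorticoid receptor pathway and were followed in the extensor digitorum longus (EDL), a fast-twitch leg muscle, of mice with experimental autoimmune encephalomyelitis (EAE), a model of multiple sclerosis. They were taken by symbol from the 21073 genes of the deposited table, and all 10 were present: the receptor gene NR3C1 and its targets FKBP5, TSC22D3, KLF15, KLF9, ZBTB16, SGK1, DDIT4, CEBPD and CEBPB. The 30 mice were wild-type females of the SJL/J strain. Each of 6 groups held 5 mice, and the mice of day 14 and day 40 were different animals. Unimmunized mice (Ctrl) received nothing, OVA-immunized mice (OVA) received ovalbumin in complete Freund's adjuvant (CFA), and EAE-induced mice (EAE) received the myelin peptide [Ser140]-PLP139-151 in CFA. Day 14 was the peak of the disease and day 40 its chronic remission. The ages of the mice and the hour of dissection are not given in the sources used here. No gene was targeted in these mice, and no hormone was given or measured.

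Glucocorticoids are steroid hormones of the adrenal cortex that rise in stress, fasting and inflammation. The hormone enters the cell and binds its receptor, which leaves a complex with the chaperone Hsp90, moves to the nucleus and binds DNA at glucocorticoid response elements. In skeletal muscle this programme is known for protein breakdown, lower protein synthesis and the release of amino acids, and among its first targets are genes that restrain the receptor itself or inflammatory signalling. Many of the targets also answer to other signals. CEBPB and CEBPD are induced by cytokines, DDIT4 by hypoxia and energy stress, and SGK1 by serum.

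The start sites of 3 members were read first because these are among the best known targets and their windows differ in matches to the glucocorticoid response element. The contrast between these windows follows from that choice, and binding was not measured. RefSeq windows (GRCm38.p6, from 250 bases before to 50 bases after a start site) were found for 7 members, in 14 windows, and none were found for ZBTB16, NR3C1 and CEBPD. Both strands were searched for a loose form of the glucocorticoid response element (GNACA, any 3 bases, then TGTNC), for its hexamer AGAACA, for the E-box CACGTG, the clock and MYC motif, and for TGACGTCA, the cyclic AMP response element. An AGAACA match can overlap a match of the element. The window of SGK1 at chr10:21993640-21993939, plus strand, held GAACAGAATGTTC from base -188 to base -176 relative to that start site, and 3 AGAACA hexamers, of which 2 overlap it. It also held 1 E-box from base -246 to -241, which overlaps the other hexamer and is not marked. TSC22D3, at chrX:140600473-140600772, minus strand, held no element and 1 hexamer in this window, from base -185 to -180. FKBP5, at chr17:28486100-28486399, minus strand, held neither in its window and 1 E-box from base -169 to -164. SGK1 and TSC22D3 have several start sites, and the window shown is the one with the most element and hexamer matches. The other TSC22D3 windows held neither. Of the other SGK1 windows none held the element, and those at chr10:21881934-21882233 and chr10:21991973-21992272 held 1 hexamer each. Capitals mark the response element and hexamers in SGK1 and TSC22D3 and the E-box in FKBP5.
SGK1: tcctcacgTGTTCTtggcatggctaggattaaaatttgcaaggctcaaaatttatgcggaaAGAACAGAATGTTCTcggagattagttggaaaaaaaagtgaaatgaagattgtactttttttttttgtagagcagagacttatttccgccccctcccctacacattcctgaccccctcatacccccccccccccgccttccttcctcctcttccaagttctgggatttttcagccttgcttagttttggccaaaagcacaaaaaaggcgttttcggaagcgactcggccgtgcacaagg
TSC22D3: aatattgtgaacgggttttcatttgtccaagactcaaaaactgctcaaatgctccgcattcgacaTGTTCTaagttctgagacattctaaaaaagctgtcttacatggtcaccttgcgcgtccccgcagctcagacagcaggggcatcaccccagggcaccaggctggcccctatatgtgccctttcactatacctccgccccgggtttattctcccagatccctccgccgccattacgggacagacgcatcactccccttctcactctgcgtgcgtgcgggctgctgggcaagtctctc
FKBP5: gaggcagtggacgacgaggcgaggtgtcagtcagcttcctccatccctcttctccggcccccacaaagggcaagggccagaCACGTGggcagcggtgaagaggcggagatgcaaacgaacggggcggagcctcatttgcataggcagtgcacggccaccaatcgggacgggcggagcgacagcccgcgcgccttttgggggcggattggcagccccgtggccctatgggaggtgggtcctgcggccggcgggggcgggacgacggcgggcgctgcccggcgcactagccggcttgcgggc
Over all 32851 RefSeq windows, the element was found in 0.475%, AGAACA in 19.0%, CACGTG in 7.15% and TGACGTCA in 1.79%. Among the 14 member windows these letters were present in 1, 4, 3 and 0. KLF15 held 3 E-boxes in its window at chr6:90462326-90462625. Such matches describe the letters only. Response elements of these genes are also known in introns and far upstream, outside these windows.

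Read depth, estimated from the steps that single reads leave in the values, ran from 18.2M to 31.4M reads per mouse with a median of 21.55M, and no member was without reads in any mouse. Values are in RPKM, reads scaled to exon length and to the mapped reads of the library, so levels can be compared between genes. All 14 genes of a fast-muscle list had a mean above 3 RPKM in every group, but their summed RPKM was lower in day 14 EAE (70461 to 84216) than in day 14 Ctrl (93996 to 124003), with no overlap. The sum of 6 erythrocyte genes was 190 to 685 in day 14 Ctrl, 477 to 1591 in OVA and 27.4 to 189 in EAE. The summed RPKM of 13 neutrophil genes ran from 4.28 to 11.5 in day 14 Ctrl, from 70.5 to 240 in day 14 OVA and from 220 to 405 in day 14 EAE, that of 11 fibroblast genes from 1310 to 2328 in day 14 Ctrl and from 411 to 680 in day 14 EAE, and that of 12 macrophage genes from 337 to 499 and from 156 to 354. Of the neutrophil genes none was at 0 in every day 14 mouse. Those tested in EAE against OVA on day 14 did not all follow the sum. S100A8 was higher (log2 fold change 2.31, limma adjusted p = 0.000139). LCN2 (0.44), S100A9 (-0.96), NGP (-0.86) and RETNLG (-1.05) had adjusted p-values of 0.0638 to 0.402. In EAE against Ctrl on day 14, the fibroblast genes were called lower except PDGFRA (-0.16, limma adjusted p = 0.402), with the collagen COL1A1 at -3.77. Of the macrophage genes, ADGRE1, CSF1R, C1QA, C1QB, C1QC and LYZ2 were called lower. CD68 (-0.21), MRC1 (-0.17), CD163 (-0.42) and ITGAM (-0.58) were not (limma adjusted p of 0.0468 to 0.465). In bulk muscle, fewer cells of a type and less RNA per cell cannot be told apart, and the part of these cells in the results below was not tested. Day 14 OVA replicate 1 was the highest of its group for 8 of the 10 members, and the calls against OVA and the list counts are also given without it. The replicate 1 mice of the 3 day 14 groups deviated from their groups alike, with an r of 0.51 to 0.70 between them across genes, and each had the highest ribosomal, neutrophil and fast-muscle sums and the lowest ZBTB16 of its group. The labels number the replicates without naming animals, so p-values measure the spread between these samples.

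Before any comparison, the members differed widely in level. In day 14 Ctrl muscle TSC22D3 was the most abundant, at 93.0 ± 8.53 RPKM (SD, n = 5), above 97.2% of all genes in the table. KLF9 followed at 43.3 ± 4.42, SGK1 at 23.0 ± 7.47, NR3C1 at 19.6 ± 2.60, CEBPB at 17.2 ± 2.60 and KLF15 at 14.7 ± 2.93 RPKM. ZBTB16, CEBPD and DDIT4 lay between 5.70 and 8.66 RPKM. FKBP5 was the lowest, at 2.97 ± 1.43 RPKM. Between the 6 groups FKBP5 spanned the widest range, with a highest group mean 8.94 times the lowest, ahead of DDIT4 (5.34), CEBPB (4.63), CEBPD (3.10) and SGK1 (2.54). TSC22D3, ZBTB16, KLF9, NR3C1 and KLF15 spanned 1.59 times or less. Day 14 EAE was the highest group for 8 members. The exceptions were ZBTB16, highest in day 40 OVA, and NR3C1, highest in day 40 Ctrl.

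**Figure D1:**
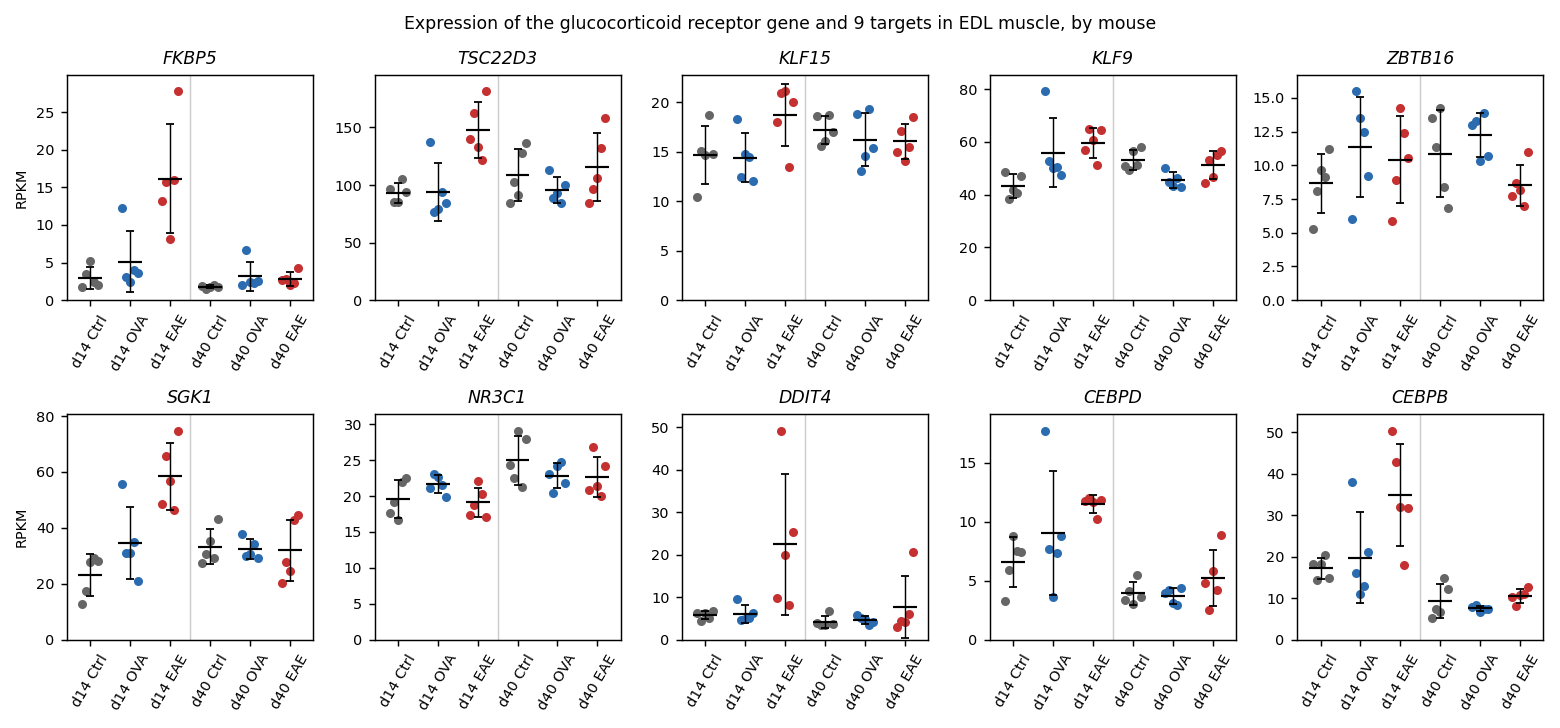
RPKM (linear axis from 0) of the 10 members in each mouse, in 6 groups of 5 mice (day, d, and group on the horizontal axis); bars mark the mean and whiskers the SD. FKBP5, DDIT4, SGK1 and TSC22D3 stand highest in day 14 EAE, while NR3C1 stays between 16.6 and 29.1 RPKM in every mouse.

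On day 14, the question was whether active disease changes these genes in muscle against unimmunized mice. Of the 10 members, 6 rose in EAE and none fell: FKBP5, DDIT4, SGK1, CEBPB, CEBPD and TSC22D3. A change was called at an adjusted p under 0.05 (limma, Benjamini-Hochberg over all genes tested) and a fold above 1.5. Over all 8771 genes tested, 14.6% were called higher and 11.8% lower. The median log2 fold change was 0.76 over the members and 0.11 over all genes. The receptor gene NR3C1 was not called, with an interval of -0.25 to 0.19 on the log2 scale. With the replicate 1 mice of all 3 day 14 groups left out, an alternative chosen after seeing the data, the same 6 members were called.

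NR3C1 encodes the receptor itself. In day 14 Ctrl mice it measured 17.7, 19.2, 16.6, 22.0 and 22.5 RPKM, and in EAE mice 17.4, 18.8, 22.0, 20.3 and 17.1 RPKM. OVA mice gave 21.2, 23.1, 22.7, 21.6 and 19.8 RPKM. The 3 groups overlap nearly entirely. The log2 fold change was -0.03 ± 0.10 (SE) for EAE against Ctrl (adjusted p = 0.822) and -0.18 ± 0.10 against OVA (adjusted p = 0.176), or -0.19 ± 0.11 without OVA replicate 1.

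FKBP5 encodes FKBP51, a co-chaperone that joins the Hsp90 complex and lowers the affinity of the receptor for its hormone, a short feedback loop. The 5 Ctrl mice of day 14 had 1.76, 3.47, 5.25, 2.39 and 2.00 RPKM. In the EAE mice 13.2, 15.7, 8.07, 15.9 and 27.8 RPKM were measured, so that the lowest EAE mouse stood above the highest Ctrl mouse. FKBP5 rose 5.28-fold (log2 2.40 ± 0.40 SE, adjusted p = 0.000233), the largest log2 fold change of the 10. Its Ctrl mean of 2.97 RPKM lay below the filter of 3 RPKM on low values. The gene entered this test through its EAE mean of 16.1 RPKM alone. OVA mice had 12.3, 3.10, 2.42, 4.07 and 3.63 RPKM, where replicate 1 lay inside the EAE range and the other 4 inside the Ctrl range. Against OVA, FKBP5 rose by 1.79 ± 0.40 (adjusted p = 0.00263).

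TSC22D3 encodes GILZ, a leucine zipper protein that binds and restrains NF-kB and AP-1. Its Ctrl values on day 14 were 96.8, 84.9, 84.9, 105 and 93.5 RPKM. EAE mice reached 139.6, 163, 133, 122 and 181 RPKM, all above Ctrl. The rise was 1.58-fold (log2 0.66 ± 0.15, adjusted p = 0.00265) and sits just above the fold threshold: without EAE replicate 5 the log2 fold change was 0.58 and the gene was no longer called. OVA mice had 138, 76.6, 79.2, 93.9 and 84.0 RPKM, with replicate 1 alone in the EAE range. Against OVA the rise was 0.67 ± 0.15 (adjusted p = 0.00297).

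SGK1 encodes a kinase related to AKT that acts on ion channels and transporters. Ctrl mice gave 12.7, 17.5, 27.8, 29.1 and 28.1 RPKM on day 14, and EAE mice 48.4, 65.7, 56.9, 46.3 and 74.8 RPKM. These ranges are separate, and SGK1 rose 2.62-fold (log2 1.39 ± 0.26, adjusted p = 0.000532). OVA mice had 55.8, 30.9, 30.9, 35.0 and 20.9 RPKM, where replicate 1 lay inside the EAE range, replicate 5 inside the Ctrl range and the other 3 between them. Against OVA the rise was 0.80 ± 0.26 (adjusted p = 0.0223). This last call was lost in 3 of the refits that leave out 1 mouse, without OVA replicate 5, EAE replicate 2 or EAE replicate 5, where the adjusted p ran from 0.0547 to 0.0646.

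DDIT4 encodes REDD1, which switches off mTORC1, the kinase complex that drives protein synthesis. Ctrl mice measured 6.22, 4.41, 6.14, 5.07 and 6.67 RPKM on day 14. EAE mice measured 9.83, 49.3, 19.8, 8.11 and 25.3 RPKM, spread widely within the group with every mouse above Ctrl. DDIT4 rose 3.18-fold (log2 1.67 ± 0.37, adjusted p = 0.00191). With OVA at 9.46, 4.52, 4.72, 5.13 and 6.24 RPKM, 1 OVA mouse was above the lowest EAE mouse. Against OVA the log2 rise was 1.63 ± 0.37 (adjusted p = 0.00282).

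CEBPB and CEBPD encode C/EBP transcription factors, which act in acute phase and cytokine responses and in muscle wasting. CEBPB had 18.3, 14.2, 18.1, 20.4 and 14.8 RPKM in day 14 Ctrl and 50.4, 42.7, 32.0, 17.9 and 31.6 RPKM in EAE, where replicate 4 lay inside the Ctrl range. CEBPB rose 1.93-fold (log2 0.95 ± 0.30, adjusted p = 0.0166). OVA mice had 38.0, 16.0, 10.9, 12.8 and 21.0 RPKM, and against them the rise was 0.89 ± 0.30 (adjusted p = 0.0287), a call that was lost without OVA replicate 2, 3 or 4 or EAE replicate 1 or 2 (adjusted p of 0.0534 to 0.0759) and with only the EAE and OVA mice in the fit (0.0564).

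CEBPD had 3.28, 5.92, 8.80, 7.49 and 7.45 RPKM in Ctrl and 11.8, 12.0, 11.6, 10.2 and 11.8 RPKM in EAE, all above Ctrl. Its rise, 1.82-fold (log2 0.86 ± 0.31, adjusted p = 0.0334), had the highest adjusted p of the 6 and was lost without any 1 of 6 mice (Ctrl replicate 1 or 2, or EAE replicate 1, 2, 3 or 5; adjusted p of 0.0531 to 0.0934) and with no filter on low values (0.0503). OVA mice had 17.7, 7.67, 3.63, 7.31 and 8.77 RPKM. EAE did not pass the threshold against OVA, at 0.52 ± 0.31 (adjusted p = 0.200) with an interval of -0.14 to 1.19.

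KLF15 and KLF9 encode Krüppel-like factors induced by the receptor. KLF15 drives the use of branched-chain amino acids in muscle, and KLF9 restrains proliferation. KLF9 measured 48.7, 38.4, 41.6, 40.5 and 47.1 RPKM in day 14 Ctrl and 57.0, 64.8, 60.7, 51.3 and 64.4 RPKM in EAE. Although those ranges did not overlap, its log2 fold change of 0.46 ± 0.13 (adjusted p = 0.00957) was below the fold threshold. OVA mice had 79.2, 52.8, 49.9, 50.4 and 47.3 RPKM, and EAE differed from OVA by 0.12 ± 0.13 (adjusted p = 0.510), or by 0.25 ± 0.10 (adjusted p = 0.0679) without OVA replicate 1. KLF15 ranged from 10.4 to 18.6 RPKM in Ctrl, 12.1 to 18.3 in OVA and 13.5 to 21.1 in EAE, with log2 fold changes of 0.35 ± 0.16 (adjusted p = 0.0815) against Ctrl and 0.37 ± 0.16 (adjusted p = 0.0775) against OVA. The last was 0.46 ± 0.16 (adjusted p = 0.0347) without OVA replicate 1, still below the fold threshold.

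ZBTB16 encodes PLZF, a zinc finger repressor that is strongly induced by glucocorticoids in many cell types. Here it ranged from 5.25 to 11.2 RPKM in Ctrl, from 6.05 to 15.5 in OVA and from 5.87 to 14.3 in EAE on day 14. The 3 groups overlap over most of their range. Its log2 fold change was 0.24 ± 0.27 (adjusted p = 0.474) against Ctrl, with an interval of -0.33 to 0.82, which leaves room for changes past the threshold in the upward direction.

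**Figure D2:**
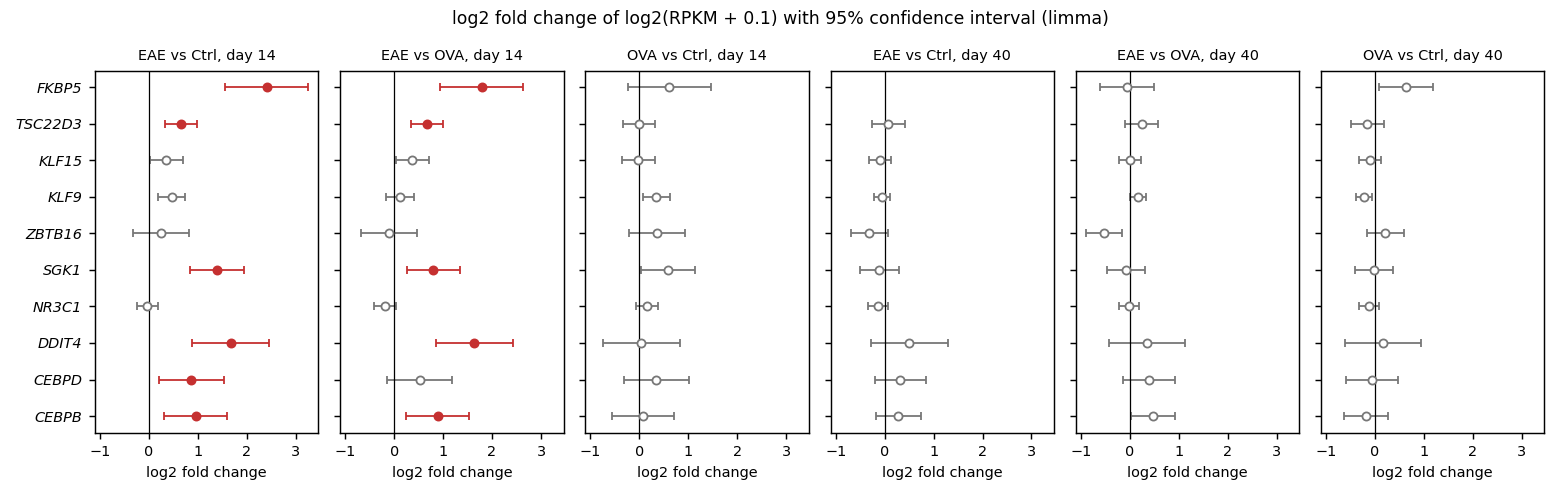
log2 fold change (horizontal axis, log2(RPKM + 0.1) scale) of each member in 6 comparisons, with 95% confidence intervals from limma; filled red points were called and open points were not. In this plot 6 members are red in EAE against Ctrl on day 14, 5 in EAE against OVA, and none elsewhere; FKBP5 was below the filter on low values in EAE against Ctrl on day 40 and has no point there.

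Against OVA, which shares the EAE mice of the comparison above, 5 members rose and none fell on day 14 (FKBP5, TSC22D3, SGK1, DDIT4 and CEBPB), where 11% of the 8674 genes tested were called higher and 9.28% lower. The median was 0.60 over the members and 0.11 over all genes. OVA replicate 1 stood apart, at 12.3 RPKM for FKBP5 where the other 4 averaged 3.31 ± 0.71 (SD, n = 4), and at 79.2 for KLF9 where they averaged 50.1 ± 2.27. For ZBTB16 it was the lowest, at 6.05 RPKM. That mouse also had the highest summed RPKM of its group for neutrophil genes (240 against 70.5 to 197), erythrocyte genes (1591 against 477 to 1442), fast-muscle genes and ribosomal protein genes (8217). The part of these in its values was not tested. Without it, the same 5 members were called together with CEBPD, at 0.81 (adjusted p = 0.0259), FKBP5 stood at 2.16, DDIT4 at 1.81, CEBPB at 1.16, SGK1 at 0.99 and TSC22D3 at 0.81.

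With ovalbumin in adjuvant against no immunization on day 14, none of 10 members was called (limma), and 0.142% of all 8471 genes were. At an unadjusted p under 0.05 there were 2, KLF9 at 0.35 ± 0.13 (adjusted p = 0.400) and SGK1 at 0.59 ± 0.26 (adjusted p = 0.470). Both became smaller without OVA replicate 1, at 0.22 and 0.40. FKBP5 had an interval of -0.24 to 1.46 here, so an increase beyond the fold threshold lies inside it, and its value was 0.61, or 0.24 without OVA replicate 1.

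**Figure D3:**
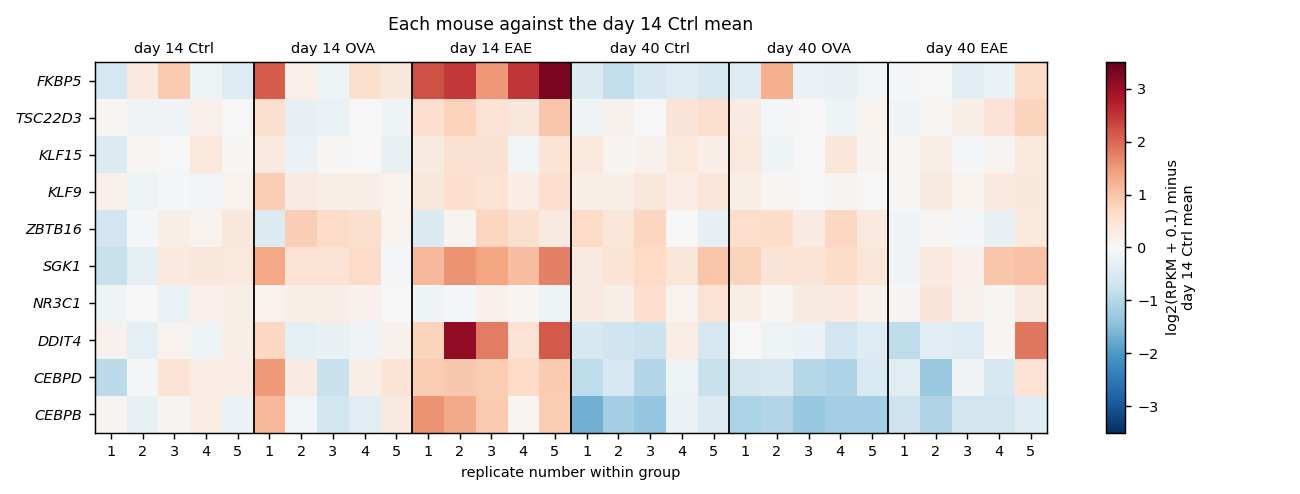
Difference of log2(RPKM + 0.1) from the day 14 Ctrl mean, for each member (rows) in each mouse (columns, by replicate number within group); red is higher and blue lower. The 5 day 14 EAE mice are red for FKBP5 and SGK1, as is day 14 OVA replicate 1, and day 40 mice are blue for CEBPB.

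On day 40, in chronic remission, the question was what remained. None of the 9 members tested was called in EAE against Ctrl, where 0.460% of all genes were, none of 10 in EAE against OVA (0.209%) and none of 10 in OVA against Ctrl (0%), by limma. At an unadjusted p under 0.05 there were 0, 3 and 2. FKBP5 was not tested in EAE against Ctrl because both means were below 3 RPKM. Its values are shown for that reason: 1.93, 1.46, 1.82, 1.98 and 1.82 RPKM in Ctrl, 2.68, 2.76, 2.07, 2.31 and 4.32 in EAE, and 2.01, 6.64, 2.37, 2.28 and 2.56 in OVA. Every EAE and OVA mouse of day 40 was above every Ctrl mouse for this gene, on a low level and by a narrow gap (2.01 in OVA against 1.98 RPKM in Ctrl). The share of all genes with separate ranges was not counted. In EAE against Ctrl, 2423 of 8691 genes had an unadjusted p under 0.05 (limma). OVA against Ctrl gave 0.64 ± 0.26 for FKBP5 (limma, unadjusted p = 0.0264, adjusted p = 0.999). It passed the filter there through OVA replicate 2, at 6.64 RPKM, and without that mouse and with no filter the value was 0.34 ± 0.17 (adjusted p = 0.996).

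The 3 members under an unadjusted p of 0.05 in EAE against OVA on day 40 were ZBTB16 (-0.52 ± 0.18, adjusted p = 0.154), KLF9 (0.16 ± 0.08, adjusted p = 0.276) and CEBPB (0.47 ± 0.21, adjusted p = 0.271). ZBTB16 had 7.72, 8.66, 8.20, 7.01 and 11.0 RPKM in EAE and 13.0, 13.3, 10.3, 13.9 and 10.7 in OVA, where 1 EAE mouse overlapped. SGK1 measured 20.3, 27.6, 24.7, 42.7 and 44.5 RPKM in EAE, 27.5, 30.8, 35.3, 29.3 and 43.3 in Ctrl and 37.7, 29.9, 30.5, 34.2 and 29.3 in OVA. Its interval for EAE against Ctrl was -0.50 to 0.29. DDIT4 had 3.03, 4.34, 4.08 and 5.93 RPKM in 4 EAE mice and 20.5 in replicate 5, a mouse that was the highest of its group for 9 of the 10 members. In that mouse NR3C1, the exception, was second, at 24.2 RPKM. It also had the highest neutrophil sum of its group (55.4 RPKM, others 8.73 to 24.2) and the highest fibroblast sum (1390, others 983 to 1315). Its ribosomal protein sum (4517) lay inside the range of the others. The part of these in its values was not tested.

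Between the days, 5 members fell in EAE from day 14 to day 40 and none rose, where 12.7% of 8709 genes were called lower. FKBP5 fell by 2.40 ± 0.36 on the log2 scale (adjusted p = 3.54e-06), CEBPB by 1.65 ± 0.28 (1.88e-05), DDIT4 by 1.63 ± 0.39 (0.00125), CEBPD by 1.24 ± 0.30 (0.00128) and SGK1 by 0.91 ± 0.24 (0.00231). FKBP5 averaged 2.83 RPKM in day 40 EAE and passed the filter here through day 14 EAE alone. The ranges of the 2 days did not overlap for FKBP5, CEBPB, CEBPD and SGK1. For SGK1 (46.3 against 44.5 RPKM) and CEBPD (10.2 against 8.87 RPKM) the gap was narrow. The share of all genes with separate ranges was not counted, and 4801 of the 8709 genes had an unadjusted p under 0.05 (limma). NR3C1 moved the other way, by 0.24 ± 0.10 (adjusted p = 0.0480), below the fold threshold.

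CEBPB was also lower on day 40 in mice without the disease. It fell by 0.98 ± 0.28 in Ctrl (limma adjusted p = 0.0125), the only member of 9 called there, where 4.35% of 8788 genes were called lower. FKBP5 was not tested in Ctrl because both means were below 3 RPKM, at 2.97 on day 14 and 1.80 on day 40. CEBPD differed by -0.70 ± 0.30 in Ctrl (adjusted p = 0.0733), and by -0.92 ± 0.26 (adjusted p = 0.0164) with the day 14 replicate 1 mice left out. In OVA CEBPB fell by 1.23 ± 0.28 (adjusted p = 0.00479) and CEBPD by 1.10 ± 0.30 (adjusted p = 0.0188), 2 members of 10, where 1.71% of 8648 genes were called lower. CEBPB measured 5.20, 7.44, 6.61, 14.8 and 12.1 RPKM in day 40 Ctrl, 7.88, 8.35, 6.66, 7.42 and 7.41 in day 40 OVA and 10.2, 8.15, 10.8, 10.9 and 12.7 in day 40 EAE, so that all day 40 mice but 1 Ctrl mouse (14.8) lay below the day 14 Ctrl minimum of 14.2. Without day 14 OVA replicate 1 the CEBPB value in OVA was -0.96 (adjusted p = 0.0220). The CEBPD call in OVA was lost without OVA replicate 1 of day 14 (-0.82, adjusted p = 0.0874), without day 14 replicate 5 or day 40 replicate 3 or 4 (adjusted p of 0.0510 to 0.0538), and with only the OVA mice in the fit (0.0563). Day, age and any run or dissection date cannot be told apart here, since each mouse was taken on 1 day. NR3C1 differed by 0.35 ± 0.10 in Ctrl (adjusted p = 0.0142) and KLF9 by 0.30 ± 0.11 (adjusted p = 0.0358), both below the fold threshold.

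An interaction term asked if day 14 and day 40 differ in the effect of EAE. Against Ctrl they did for 2 members, FKBP5 (-1.82 ± 0.51, adjusted p = 0.00468) and SGK1 (-1.49 ± 0.33, adjusted p = 0.000816). Of the groups compared there, only day 14 EAE had an FKBP5 mean above the filter. All 10 differences were negative, with a median of -0.57 against -0.15 over all genes, but 20.9% of the 9013 genes tested were called lower, so 2 of 10 is near that background. Against OVA the same 2 genes were called, FKBP5 (-1.84 ± 0.51, adjusted p = 0.00603) and SGK1 (-0.88 ± 0.33, adjusted p = 0.0422), where 13.7% of 8935 genes were called lower. Without day 14 OVA replicate 1 these stood at -2.22 and -1.07, and DDIT4 was called as well (-1.46, adjusted p = 0.0486). The SGK1 call against OVA was lost in 12 of the refits that leave out 1 mouse, in 6 of which that mouse was of day 14 and in 6 of day 40, and under median-of-ratios scaling (-0.76, adjusted p = 0.0800) and with no filter (adjusted p = 0.0723). The interaction of OVA against Ctrl called no member and no gene of 8848 (0%, limma), and 1 member, KLF9 (-0.57 ± 0.15, adjusted p = 0.228), was under an unadjusted p of 0.05, at -0.44 without OVA replicate 1. Rescaling the libraries by median of ratios moved the median of all genes by up to 0.13 on the log2 scale and changed the split of calls over all genes in the interaction against Ctrl from 1059 higher and 1888 lower to 1425 and 1353, and in the interaction against OVA from 729 and 1222 to 950 and 838. In Ctrl between days it changed from 441 and 382 to 252 and 580, and in OVA between days from 195 and 148 to 152 and 193. In EAE against OVA on day 14 it changed from 957 and 805 to 839 and 892, in EAE against Ctrl on day 40 from 6 and 34 to 10 and 11, and in EAE against OVA on day 40 from 3 and 15 to 0 and 2.

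The partners of the receptor were measured as a list of 18 genes for hormone supply, chaperones and cofactors. Of 16 tested in EAE against Ctrl on day 14, 8 rose and none fell, where 14.6% of all genes were called higher, with a median of 0.55 against 0.11 over all genes. With the day 14 replicate 1 mice left out 6 rose. PTGES3, the p23 co-chaperone, rose by 0.98 ± 0.27 (adjusted p = 0.00722), the coactivator NCOA2 by 0.76 ± 0.25 (adjusted p = 0.0208) and HSP90AB1, a constitutive Hsp90, by 0.75 ± 0.13 (adjusted p = 0.000345). Against OVA 2 of 16 were called higher, HSP90AB1 (0.99 ± 0.13) and PTGES3 (0.71 ± 0.27), near the 11% of all genes, and 1 without OVA replicate 1. HSD11B1, the enzyme that regenerates active hormone inside cells, averaged 3.90 ± 0.59 RPKM in Ctrl and 4.30 ± 0.72 in EAE and was not called (0.13 ± 0.14, adjusted p = 0.447). NR3C2, the mineralocorticoid receptor, which also binds glucocorticoids, was below the filter in these comparisons, with 1.21 ± 0.67 RPKM in Ctrl, 1.88 ± 0.99 in OVA and 2.54 ± 0.60 in EAE.

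Other genes that glucocorticoids induce, 28 in all, had 13 of 26 called higher and 1 lower in EAE against Ctrl on day 14, with a median of 0.84, and the same counts against OVA, where 14.6% and 11% of all genes were called higher. Without OVA replicate 1 the counts against OVA were 12 and 1. CDKN1A, the cell cycle inhibitor p21, rose by 2.94 ± 0.30 (adjusted p = 4.38e-06), from 24.4 ± 6.04 to 198 ± 80.2 RPKM. AMPD3, an AMP deaminase known from atrophying muscle, rose by 2.91 ± 0.37 (adjusted p = 2.35e-05), the clock gene PER1 by 2.35 ± 0.37 (adjusted p = 0.000129) and the EGF receptor inhibitor ERRFI1 by 1.70 ± 0.25 (adjusted p = 7.99e-05). SESN1, a sestrin, fell by 0.66 ± 0.16 (adjusted p = 0.00403). The leading genes against OVA were CDKN1A (2.78), AMPD3 (2.74), MT2, a metallothionein (1.72), and FBXO32, the ubiquitin ligase atrogin-1 (1.66), while ANGPTL4, an inhibitor of lipoprotein lipase, fell by 1.54 ± 0.40 (adjusted p = 0.00631). From day 14 to day 40 in EAE, 14 of 25 fell and 1 rose, where 12.7% of all 8709 genes were called lower and 728 genes higher. On day 40 the list held a single call in EAE against Ctrl, FBXO32, which fell by 0.61 ± 0.14 (adjusted p = 0.0312). Over all genes 0.460% were called in that comparison.

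Of 11 KLF15 targets of amino acid and lipid use, 1 fell in EAE against Ctrl on day 14, GPT, an alanine aminotransferase (-0.89 ± 0.13, adjusted p = 5.63e-05), and 2 fell against OVA, GPT (-0.98) and ACADM, a fatty acid dehydrogenase (-0.74), where 11.8% and 9.28% of all genes were called lower. Without OVA replicate 1 it was 3 against OVA. Of 14 inflammatory genes that glucocorticoids repress, 4 passed the filter and none was called in either comparison (limma), with medians of -0.62 and -0.52, while without OVA replicate 1 there was 1 call against OVA, a lower one. Among 23 paralogs of the members, 3 of 15 rose against Ctrl, KLF10 (1.02), KLF4 (0.81) and TSC22D2 (0.75), and none of 16 against OVA, with or without OVA replicate 1, where 14.6% and 11% of all genes were called higher. These paralogs are separate genes in the table, and reads shared between close copies cannot be followed from RPKM.

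The time of day moves several of these genes, since hormone release follows a daily rhythm and PER1 is itself a target. Of 14 clock genes tested, 6 rose in EAE against Ctrl on day 14 and none fell, where 14.6% of all genes were called higher. PER1, CLOCK (1.01) and CRY2 (0.88) were among those that rose. Against OVA 4 rose, PER1 (1.53), CRY2 (1.28), DBP (0.90) and TEF (0.81), where 11% of all genes were called higher, and 4 rose without OVA replicate 1. PER1 varied within groups, from 2.29 to 11.4 RPKM in day 14 Ctrl and from 3.92 to 22.5 in day 40 EAE, and ran from 20.2 to 43.8 in day 14 EAE. Across the 30 mice SGK1 went with PER1 at a Pearson r of 0.83, and at 0.73 once each group's mean was removed. For FKBP5 the second value was 0.00. TSC22D3 had 0.56 and DDIT4 0.44. In day 40 EAE the mice with the highest SGK1, 42.7 and 44.5 RPKM, were those with the highest PER1, 22.5 and 21.6 RPKM. The part of the hour of dissection in these values was not tested.

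**Figure D4:**
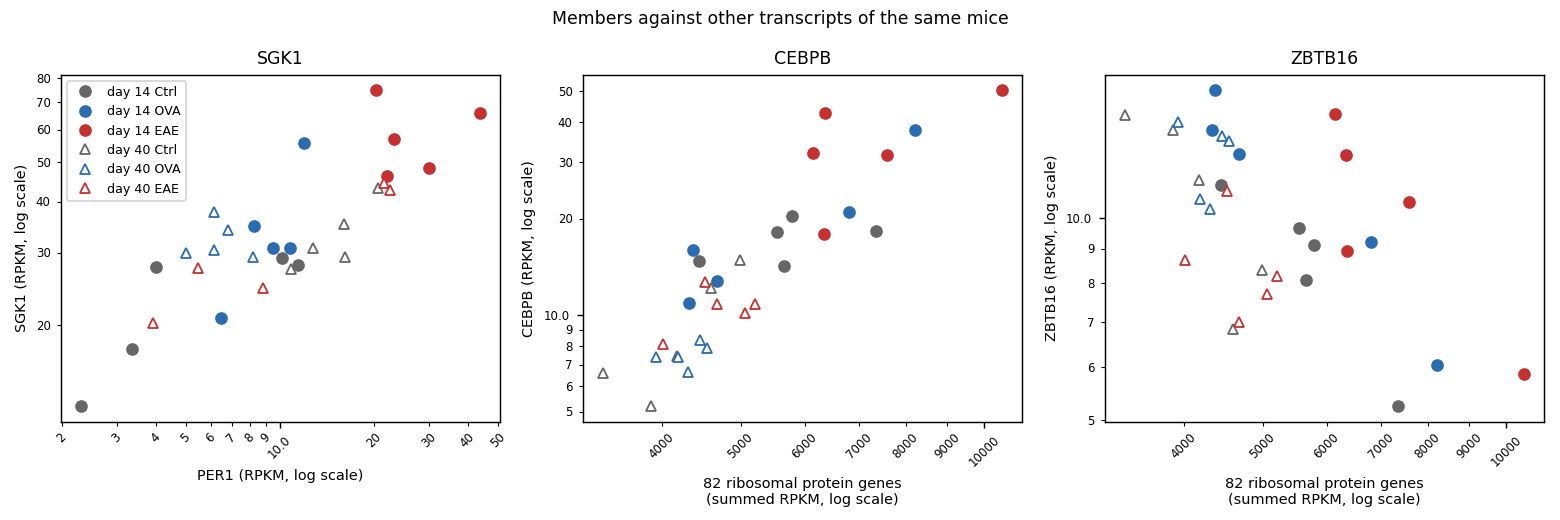
SGK1 against PER1, and CEBPB and ZBTB16 against the summed RPKM of 82 ribosomal protein genes, in each of the 30 mice (log axes, RPKM; filled circles day 14, open triangles day 40, colour by group). Over all mice SGK1 and CEBPB rise along their axes and ZBTB16 falls, with an r of -0.59 for ZBTB16, and -0.85 with group means removed.

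Genes whose levels ran most like a member were taken by Pearson r of log2(RPKM + 0.1) over the 30 mice, among 9039 genes. The mice share groups, so these values describe only the pattern. FKBP5 was most like CDKN1A (0.89), FNTB (0.88) and RAB12 (0.88), TSC22D3 like USP2 (0.85), CTXN3 (0.83) and METAP2 (0.82), and SGK1 like GTDC1 (0.90), ARRDC3 (0.89) and S1PR1 (0.88). DDIT4 followed FBXO31 (0.83), BTG2 (0.83) and SRXN1 (0.82). KLF15 followed HBP1 (0.75), RNF103 (0.74) and PRODH (0.74), and KLF9 followed ARRDC2 (0.75), SLU7 (0.74) and SIAH1A (0.72). NR3C1 was nearest to VEZF1 (0.87), ANGPT1 (0.83) and FAM102B (0.82), and ZBTB16 to R3HDM2 (0.85), TNS1 (0.84) and ALPK3 (0.83).

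CEBPB was most like the ribosomal protein genes RPL6 (0.93) and RPL23 (0.93), and CEBPD like RPS4X (0.82), TPT1 (0.82) and RPL19 (0.81). Against the sum of 82 ribosomal protein genes, a list made after these values were seen, CEBPB had an r of 0.89 over all mice and 0.73 with group means removed. CEBPD had 0.73 and 0.38, close to the 0.69 and 0.32 of FKBP5. ZBTB16 had -0.59 and -0.85, and NR3C1 -0.75 and -0.57. That sum ran from 4437 to 7344 RPKM in day 14 Ctrl, 6140 to 10523 in day 14 EAE and 3376 to 4990 in day 40 Ctrl. Its part in the CEBPB, ZBTB16 and NR3C1 values was not tested.

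Members varied together only in part. Over the 45 pairs of members the median r was 0.45 across the mice and 0.36 with group means removed. Within groups the closest pairs were TSC22D3 with DDIT4 (0.70), TSC22D3 with KLF9 (0.69) and TSC22D3 with CEBPB (0.67). The most opposed pair was ZBTB16 with CEBPB (-0.68). NR3C1 and FKBP5, receptor and feedback target, had -0.33 within groups.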

How the data were processed

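Poly(A) RNA of EDL muscle from 30 mice was sequenced in paired-end reads. Subread (alignment, mm10) and featureCounts (RefSeq transcripts) were run by the authors, who deposited 1 table in which, as the values show, expression is log2(RPKM + 1), with 0.0001 (25.8% of values) where a gene had no read. The log scale is not stated: for short genes with few reads, a median of 55.1% of values were within 0.1 of whole reads on this scale, 23.7% if read as RPKM and 37.4% as natural logs. The authors' own tests used edgeR on counts, which were not used here.

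Values were converted to RPKM and tested as log2(RPKM + 0.1) with limma 3.58.1 (R 4.3.3, two-sided, mean-variance trend). The genes tested averaged more than 3 RPKM in 1 or more of the compared groups. The added 0.1 understates fold changes of low genes, and a gene can pass the filter through its higher group alone. Within-day comparisons were fitted on the 15 mice of a day, the others on all 30. Calls needed an adjusted p under 0.05 and a fold above 1.5. Alternatives were the pseudocount, the filter, the scaling, the mice in the fit, no fold threshold, a replicate block, no trend and leaving out each mouse. Log intervals are 95% confidence intervals. Sequences and coordinates were RefSeq's for GRCm38.p6, the assembly of mm10.

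The members and lists were chosen with earlier results of these data known. All 10 members are described. From each list at most the 4 largest calls per direction and comparison were named, plus NR3C2, HSD11B1 and PER1, and for each member the 3 genes with the highest r. Some genes that this rule names are not reported here.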

Additional observations from a re-analysis of the deposited data

Results flagged for a closer look

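Some mice stood far from the rest of their group for single members: in 7 of 60 member and group combinations the gap between an extreme mouse and its neighbour, divided by the range of the group, was above Dixon's critical value of 0.71 for 5 mice. Chance alone exceeds it in about 1 group in 20. Day 14 OVA replicate 1 held 3 of them, with ratios of 0.833 for FKBP5 (12.3 RPKM, others 2.42 to 4.07), 0.717 for TSC22D3 and 0.827 for KLF9. In day 40 OVA, replicate 2 gave 0.881 for FKBP5 (6.64 RPKM, others 2.01 to 2.56). DDIT4 was high in day 40 Ctrl replicate 4 (ratio 0.857, 6.75 RPKM) and in day 40 EAE replicate 5 (ratio 0.834, 20.5 RPKM). CEBPD was low in day 14 EAE replicate 4 (ratio 0.791, 10.2 RPKM, others 11.6 to 12.0), in a group with little spread.

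The effect of EAE differed between day 14 and day 40, by a test of the interaction, for FKBP5 against Ctrl (-1.82 on the log2 scale) and against OVA (-1.84), and for SGK1 against Ctrl (-1.49) and against OVA (-0.88). Over all genes 20.9% were called lower against Ctrl and 13.7% against OVA. The SGK1 call against OVA was lost under median-of-ratios scaling (limma adjusted p = 0.0800), with no filter (0.0723) and in several refits without 1 mouse.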

How the results depend on the processing

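Of 23 called member values, 152 of 157 refits under the planned settings and 239 of 270 refits without 1 mouse kept the direction and the call, and the other 36 kept the direction only. For the 95 member values not called, 625 of 639 and 1124 of 1208 such refits kept the direction and stayed uncalled. Their sign turned in 8 and 60 refits, and a call was gained in 6 and 24. Counts of members called changed by over 1.5 times in these cases: without a fold threshold, 3 in Ctrl between days (1 before) and 4 in the interaction of EAE against Ctrl (2 before), with only the OVA mice in the fit, 1 in OVA between days (2 before), and in the interaction of EAE against OVA 1 with no filter and 1 with median-of-ratios scaling (2 before). Leaving out 1 mouse at a time gave 4 to 6 members in EAE against Ctrl on day 14, 3 to 6 in EAE against OVA on day 14 (3 without EAE replicate 2), 1 to 2 in Ctrl between days, 1 to 2 in OVA between days, 5 to 5 in EAE between days, 2 to 5 in the interaction of EAE against Ctrl, 1 to 3 in that of EAE against OVA and 0 to 0 in the others. Only the sign changes within the EAE comparisons of day 14 are named here. For NR3C1 against Ctrl the sign turned without Ctrl replicate 4 or 5 or EAE replicate 1 or 5 (0.0126, 0.0207, 0.000328 and 0.00691). For ZBTB16 against OVA it turned without OVA replicate 2 or EAE replicate 1 (0.0166 and 0.0756). All were values with no call. Leaving out each mouse in turn, the NR3C1 and ZBTB16 values ran from -0.0882 to 0.0207 and from -0.319 to 0.0756. Why these changed was not tested.

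With the replicate number as a block, 6 members were called in EAE against Ctrl and 5 in EAE against OVA on day 14, as without it, and no other count changed. Same-numbered mice correlated at -0.726 to 0.695, above 0.1 in 8 of 30 pairs, so the numbers were not taken as pairs, although the 3 pairs of day 14 replicate 1 mice were at 0.51 to 0.70. With those 3 mice left out, chosen after seeing the data, 2 members were called in Ctrl between days (1 before) and 4 in each interaction of EAE (2 before), and the counts in EAE against Ctrl and against OVA on day 14 were 6 and 6 (6 and 5 before). At 18.2M to 31.4M reads the lowest members, FKBP5 and CEBPD, lie near the filter of 3 RPKM on day 40.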
